A study of Rattus norvegicus with 8 samples.

Results

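Transcripts of heat shock proteins and endoplasmic reticulum (ER) chaperones were followed in axons and cell bodies of rat hippocampal neurons. The set was a list of 42 names of chaperones, their cofactors, and factors of the heat shock and unfolded protein responses, and it gave 42 of the 26405 Ensembl gene identifiers measured. Of the 42 names, 36 were found by gene symbol. Another 5 were found through their Entrez identifier, because the row had no symbol (Manf, Xbp1, Hspa8) or a provisional one (Hsp90ab1 as LOC100909504, Syvn1 as LOC100910831). No row had the symbol Hspa1a, and 2 identifiers carried the symbol Hspa1b. Their shared Entrez identifier is named Hspa1a in RefSeq, so the 2 names cannot be told apart, and the symbol Hspa1b is kept here. The 2 identifiers hold nearly the same reads, so the 42 identifiers in all counts below stand for 41 genes. LOC100362895 is the row that RefSeq names Hsp90aa1, the inducible cytosolic Hsp90. By the place where their proteins work, 21 identifiers were ER, 18 cytosolic or nuclear, and 3 mitochondrial. All 42 had reads in both compartments, while 23879 of all identifiers had reads in axons and 18995 in soma.

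The neurons were taken from embryos and kept for 10 to 14 days in microfluidic chambers, where cell bodies and axons sit in separate wells joined by fine channels. For 24 h the axonal well alone received vehicle or oligomeric, soluble Abeta(1-42), the amyloid peptide. RNA of each side was sequenced in 4 groups of 2 samples, namely axons Abeta, axons vehicle, soma Abeta and soma vehicle. Whether duplicates are separate cultures is not stated, so the spread behind each p-value may be technical only. The files hold 1 treatment comparison per compartment, made with DESeq2, and do not name the numerator. A positive log2 fold change therefore places a gene on the positive side and a negative one on the negative side. Which of them is Abeta is not known, nor whether the positive side is the same treatment in both compartments.

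Chaperones bind unfolded proteins and help them fold, refold or reach degradation. Heat shock factor 1, encoded by Hsf1, drives cytosolic heat shock genes through heat shock elements in their promoters. In the ER, unfolded protein releases the Hsp70 chaperone BiP, encoded by Hspa5, from stress sensors, and the factors ATF6 and XBP1 then raise ER chaperone genes through ER stress response elements. Neurons translate some mRNAs in axons, far from the cell body. Chaperones also limit the aggregation of amyloid peptides and tau, which is why the family is studied in Alzheimer's disease models.

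Reads per library were recovered from the digits of the deposited means, which gave 2 libraries on each side that cannot be matched to sample titles. Over genes with a mean of up to 1000, the axonal libraries gave 425420 and 422370 reads on the positive side, against 293288 and 231854 on the negative side. Over such genes the somatic libraries gave 2695075 and 262971 reads on the positive side, against 3656302 and 290259 on the negative side. Each somatic side thus joined a deep library to a shallow one. Reads of genes with higher means were not recovered, so none of these is a full library total. Libraries also differed in cell type markers. Astrocyte markers (17 of 18 listed genes found) summed to 3899 and 4298 normalized counts in the axonal libraries of the positive side, against 768 and 1386 in those of the negative side. Most of that sum was Gfap (1228 and 1530, against 158 and 375) and Vim (1286 and 1264, against 225 and 192). Of the 17, 10 stood apart with the positive side higher and 1, Slc1a2, with the negative side higher. Slc1a2, Slc4a4, Sparcl1, Ntsr2 and Fabp7 had log2 fold changes below 0, and the median of the 17 was 1.39. Fibroblast markers (13 of 14 found) summed to 1611 and 2325 on the positive side, against 400.2 and 389 on the negative side, but the list was split. Sparc alone gave 836 and 1217 of the positive-side sums, against 127 and 109 of the negative-side ones. The 5 fibroblast markers Sparc, Col1a1, Col1a2, Fbln1 and Col6a1 stood apart with the positive side higher, another 5 (Fbn1, Pdgfrb, Igf2, Dcn and Lum) with the negative side higher, and the median log2 fold change of the 13 was -0.06. Neuron markers overlapped, with 819 and 865 on the positive side, against 559 and 1141 on the negative side. Microglia markers had 116 and 62.6 normalized counts on the positive side, against 149 and 231 on the negative side, and oligodendrocyte lineage markers had 90.7 and 86.9 on the positive side, against 92.4 and 49.97 on the negative side. None of these markers was at 0 in both positive-side libraries, and Aif1 of microglia was at 0 in both negative-side libraries. In soma, the fibroblast sum moved with depth rather than side, with 581 and 1785 normalized counts in the deep and the shallow positive-side library, against 562 and 1886 in the deep and the shallow negative-side library. Sparc alone gave 356 and 1158 of the former 2 sums, against 359 and 1264 of the latter 2.

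In axons, chaperone transcripts lay mostly on the positive side. The log2 fold change was above 0 for 36 of 42 identifiers, against 43.7% of all genes with reads, in the authors' deposited table. Its median was 0.92 for the 42 chaperones and -0.13 for all genes with reads. By place, the median was 0.84 for ER members (range -0.22 to 1.60), 1.01 for cytosolic and nuclear members (range -0.58 to 2.897), and 0.46 for the 3 mitochondrial ones (range -0.33 to 0.88), the last of which came to -0.03 for side means in centred libraries. Genes well expressed in soma leaned the same way. Among the 2683 genes whose mean in soma reached 100 normalized counts, here called soma-expressed, 76.6% were above 0 and the median was 0.44. The 22 chaperones past the same limit had 21 values above 0 and a median of 0.92.

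The adjusted test called 2 chaperones, Canx and LOC100362895, both on the positive side. They were 2 of the 13 members that carry an adjusted p in the authors' deposited table, where 8.78% of the 1321 genes with one were called on the positive side. None of the 13 was called on the negative side, against 14.2% of those genes. DESeq2 gave no adjusted p to genes with few reads, and the lowest axonal mean with one was 44.8 normalized counts. At an unadjusted p under 0.05, 9 of the 42 members were on the positive side (4 ER and 5 cytosolic), against 1.86% of all genes with reads. None was on the negative side, against 619 of the 23879 genes with reads. An axonal mean of at least 10 was reached by 34 of the 42 members, but by only 8032 of those genes. The shares over all genes thus include many genes with few reads. Both calls ended when p-values were adjusted over every gene with reads, which gave DESeq2 Wald tests with Benjamini-Hochberg adjusted p = 0.314 for Canx and 0.480 for LOC100362895. They also ended when fold changes were centred on the median of soma-expressed genes. There, a two-sided z-test of the shifted fold change over its deposited SE gave Benjamini-Hochberg adjusted p = 0.189 for Canx and 0.329 for LOC100362895. That adjustment ran over the 1321 genes with a deposited adjusted p.

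Library values showed how far the sides stood apart. Both positive-side libraries lay above both negative-side ones for 29 of 42 members (13 ER, 14 cytosolic and 2 mitochondrial), against 17.1% of all genes with reads. The reverse held for Hspa2 alone, against 20% of all genes. Both Hspa1b identifiers, which hold nearly the same reads, are counted among the 29. Among soma-expressed genes, the positive side was higher without overlap for 19 of 22 chaperones, against 47.8% of the genes, and the negative side for none, against 6.05%. After each library was centred on those genes, the positive side was higher for 15 of 22 chaperones, against 21.5%, and the negative side for 1 of 22, against 21.4%. Over all 42 members the centred counts were 20 for the positive side, against 8.89% of all genes, and 3 for the negative side, against 30.6%. Of the 13 members whose axonal mean reached 50, the positive side was higher for 12, against 49.6% of such genes, and the negative side for 0, against 15.9%. The shifts removed were 0.18 and 0.43 on the log2 scale in the positive-side libraries, against -0.37 and -0.11 in the negative-side ones.

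**Figure D1:**
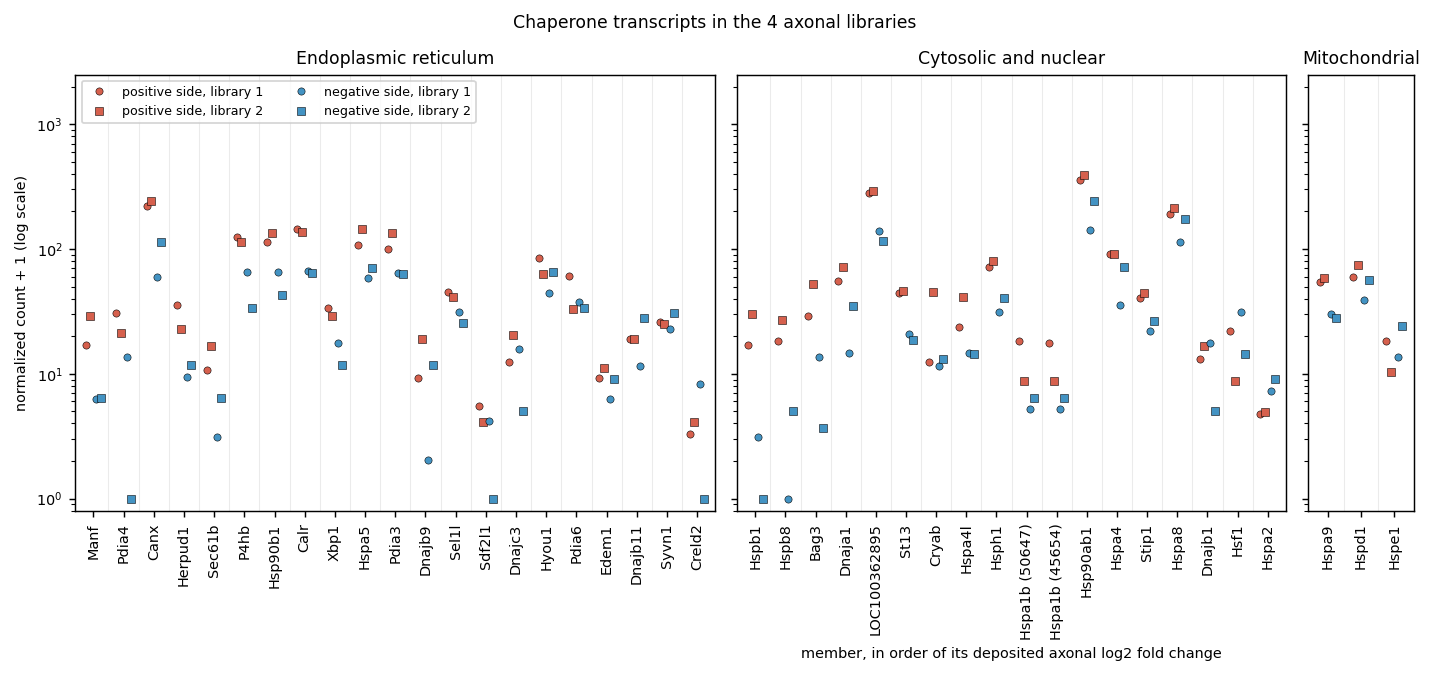
Normalized counts plus 1, on a log axis, of each of the 42 chaperone identifiers in the 4 recovered axonal libraries (red, positive side; blue, negative side; circle and square, library 1 and 2 of a side), in 3 panels by the place where the protein works and ordered by deposited log2 fold change. Red points lie above both blue points for 29 identifiers, and the reverse holds for Hspa2 alone.

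ER chaperones and the genes of ER protein quality control were the largest class. Of the lectin chaperones, which hold newly made glycoproteins until they are folded, Canx (calnexin) was the member called. Canx read 218 and 239 normalized counts in axons on the positive side, against 58.8 and 112 on the negative side. These rest on 289 and 306 reads on the positive side, against 56 and 83 on the negative side. The log2 fold change of Canx was 1.35 (SE 0.47, DESeq2 adjusted p = 0.0226), a 2.55-fold difference, in the authors' deposited table. Calr (calreticulin), the soluble lectin chaperone of the ER lumen, had 144 and 135 normalized counts on the positive side, against 65.1 and 63.5 on the negative side. The sides of Calr did not overlap, but its log2 fold change of 1.06 (SE 0.48) did not pass, with adjusted p = 0.103, taken from the authors' deposited table.

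The main ER members of the Hsp70 and Hsp90 families gave like values. Hspa5 had 107 and 144 normalized counts on the positive side, against 57.8 and 68.9 on the negative side. Hsp90b1, which encodes the ER Hsp90 GRP94, had 112 and 132 on the positive side, against 64.1 and 41.9 on the negative side. Their log2 fold changes were 0.93 (SE 0.50, adjusted p = 0.191) for Hspa5 and 1.12 (SE 0.52, adjusted p = 0.104) for Hsp90b1 in the authors' deposited table. Hyou1, a large Hsp70-related protein that exchanges the nucleotide of BiP, overlapped, with 83.9 and 61.8 on the positive side, against 43.1 and 64.8 on the negative side. The log2 fold change of Hyou1 was 0.41 (SE 0.56, adjusted p = 0.655), taken from the authors' deposited table.

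Protein disulfide isomerases form and shuffle disulfide bonds. P4hb, the founding member, had 123 and 112 normalized counts on the positive side, against 64.1 and 32.4 on the negative side, and Pdia3, which works on glycoproteins held by calnexin and calreticulin, had 98.3 and 134 on the positive side, against 63.0 and 62.1 on the negative side. Neither isomerase had overlapping sides, and neither passed, with log2 fold changes of 1.19 (SE 0.54, adjusted p = 0.0982) for P4hb and 0.84 (SE 0.50, adjusted p = 0.257) for Pdia3 in the authors' deposited table. Pdia4 had 29.5 and 20.3 normalized counts on the positive side, against 12.6 and 0 on the negative side, and Pdia6 overlapped, with 59.7 and 32.1 on the positive side, against 36.8 and 32.4 on the negative side.

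Members with fewer reads carried no adjusted p. Manf, a small secreted ER stress protein with neurotrophic activity, had the highest log2 fold change of the ER class, 1.60 (SE 0.87, unadjusted p = 0.0657), taken from the authors' deposited table. Manf had 15.9 and 28.2 normalized counts on the positive side, against 5.25 and 5.40 on the negative side. Of the genes of ER-associated degradation, Herpud1 had 34.8 and 21.9 on the positive side, against 8.40 and 10.8 on the negative side. Sel1l had 44.6 and 39.9 on the positive side, against 30.5 and 24.3 on the negative side, so neither overlapped. Syvn1, the ubiquitin ligase that Sel1l partners, overlapped, with 24.9 and 24.3 on the positive side, against 22.1 and 29.7 on the negative side. The stress factor Xbp1 had 32.5 and 28.2 on the positive side, against 16.8 and 10.8 on the negative side, and Sec61b, a subunit of the translocation channel, had 9.83 and 15.7 on the positive side, against 2.10 and 5.40 on the negative side. Among ER members with an axonal mean of at least 10, Syvn1 had the lowest log2 fold change, -0.06, in the authors' deposited table. The ER members left, Dnajb9, Dnajb11, Dnajc3, Sdf2l1, Creld2 and Edem1, had log2 fold changes of -0.22 to 0.83 there.

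Promoters of this class can be read for the elements that ATF6 and XBP1 use. RefSeq promoter windows on the GRCr8 rat assembly, 250 bases up to the annotated start, were found for 34 of the 41 genes behind the 42 identifiers, and they were searched on both strands with overlaps allowed. No window was found for Pdia3, Pdia6, Manf, LOC100362895, Cryab, St13 and Hsf1, so these were not searched. The ER stress response element, CCAAT and CCACG with any 9 bases between them, was in 7 of 18 ER windows (38.9%), in none of 13 cytosolic and 3 mitochondrial ones, and in 0.0657% of all 33469 promoters. A further form, ATTGG and CCACG with any 1 base between them, was in the ER windows of Herpud1 and Hyou1 and in 0.0418% of all promoters. For the 9 ER members with either form the deposited axonal values had a log2 median of 0.96 (range -0.22 to 1.35), against 0.56 (range -0.06 to 1.46) for the 9 with neither, and this difference was not tested. The windows of Hspa5, Hsp90b1 and Canx are printed because they show 1 or more elements at different distances from the start. Each runs 5′ to 3′ along the gene, with the element in capitals. Hspa5 lies at chr3:38452766-38453015 on the plus strand, Hsp90b1 at chr7:23012294-23012543 on the minus strand, and Canx at chr10:35157858-35158107 on the minus strand.
Hspa5: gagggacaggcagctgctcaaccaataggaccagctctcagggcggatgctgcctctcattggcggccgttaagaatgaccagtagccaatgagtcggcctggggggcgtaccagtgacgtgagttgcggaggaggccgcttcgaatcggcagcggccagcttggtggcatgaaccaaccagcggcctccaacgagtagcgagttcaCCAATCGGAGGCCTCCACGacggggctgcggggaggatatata
Hsp90b1: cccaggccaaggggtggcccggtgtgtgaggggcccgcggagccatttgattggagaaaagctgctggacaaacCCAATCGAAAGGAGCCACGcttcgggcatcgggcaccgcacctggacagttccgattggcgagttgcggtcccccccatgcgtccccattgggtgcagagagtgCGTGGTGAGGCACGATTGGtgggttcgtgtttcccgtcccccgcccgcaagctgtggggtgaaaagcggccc
Canx: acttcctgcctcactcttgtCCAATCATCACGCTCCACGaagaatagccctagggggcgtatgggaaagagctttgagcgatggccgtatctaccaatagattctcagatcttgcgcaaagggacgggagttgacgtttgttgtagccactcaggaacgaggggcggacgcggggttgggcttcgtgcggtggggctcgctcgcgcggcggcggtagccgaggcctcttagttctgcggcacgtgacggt
The element of Hspa5 ends 25 bases before the start and that of Canx 212 bases before it. Hsp90b1 has 2, of which the nearer ends 54 bases before the start and reads on the opposite strand. A match describes letters in these windows and not binding of a factor. ER chaperone genes are known targets of ATF6 and XBP1, as given above, so the shares are a description and no test.

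Cytosolic chaperones held the 3 highest fold changes of the 42 and the other call. LOC100362895, the inducible Hsp90, was the member called. It had 280.4 and 288 normalized counts on the positive side, against 139 and 115 on the negative side. The log2 fold change of LOC100362895 was 1.12 (SE 0.42, DESeq2 adjusted p = 0.0375), a 2.17-fold difference, in the authors' deposited table. Hsp90ab1, the constitutive Hsp90, had 354 and 388 on the positive side, against 142 and 242 on the negative side, and its log2 fold change of 0.91 (SE 0.43) did not pass, with adjusted p = 0.116, taken from the authors' deposited table. Of the cofactors of Hsp70 and Hsp90, Stip1, which links both, had 39.3 and 43.0 on the positive side, against 21.01 and 25.7 on the negative side, and St13, which binds Hsp70, had 43.1 and 45.4 on the positive side, against 19.96 and 17.6 on the negative side. Both cofactors had sides that did not overlap, as did both Hsp90 genes.

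The constitutive Hsp70 gene Hspa8 had the smallest fold change of the 5 cytosolic members with an adjusted p. Hspa8 had 191 and 212 normalized counts on the positive side, against 112 and 172 on the negative side, at 0.49 on the log2 scale (SE 0.45, adjusted p = 0.484), taken from the authors' deposited table. The Hsp110 nucleotide exchange factors Hsph1 and Hspa4 serve Hsp70. Hsph1 had 70.3 and 79.8 on the positive side, against 30.5 and 39.2 on the negative side, and Hspa4 had 90.7 and 89.99 on the positive side, against 34.7 and 70.2 on the negative side. Their log2 fold changes were 1.02 (SE 0.57, adjusted p = 0.210) for Hsph1 and 0.73 (SE 0.55, adjusted p = 0.390) for Hspa4 in the authors' deposited table. Dnaja1, an Hsp40 cochaperone that delivers clients to Hsp70, had 54.4 and 70.4 on the positive side, against 13.7 and 33.8 on the negative side. The stress-inducible Hspa1b cannot be assigned to 1 locus, because its 2 identifiers had 22, 10, 4 and 4 reads and 23, 10, 4 and 4 reads in the axonal libraries (the first 2 values being the positive side) and equal reads in soma.

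The small heat shock protein genes Hspb1 and Hspb8 and their partner Bag3 had the highest log2 fold changes of all 42, on few reads. Small heat shock proteins hold unfolded clients without ATP, and BAG3 joins HSPB8 and Hsp70 in sending clients to autophagy. Hspb1 had 21 and 37 reads on the positive side, against 2 and 0 on the negative side, or 15.9 and 29.0 normalized counts on the positive side, against 2.10 and 0 on the negative side. Hspb8 had 17.4 and 25.8 normalized counts on the positive side, against 0 and 4.05 on the negative side, and Bag3 had 28.0 and 51.6 on the positive side, against 12.6 and 2.70 on the negative side. The sides of all 3 stood apart. The ratio of pooled reads, scaled by the size factors, was 18.9 for Hspb1 (95% interval 4.99 to 160), 12.1 for Hspb8 (3.95 to 60.7) and 4.79 for Bag3 (2.73 to 9.06), and these intervals cover counting error only. The log2 fold changes were 2.897 (SE 0.96, unadjusted p = 0.00266) for Hspb1, 2.42 (SE 0.96, unadjusted p = 0.0113) for Hspb8 and 1.94 (SE 0.80, unadjusted p = 0.0146) for Bag3 in the authors' deposited table, which gives none of the 3 an adjusted p. Cryab, another small heat shock protein, overlapped, with 11.3 and 44.6 on the positive side, against 10.5 and 12.2 on the negative side. Leaving out 1 library moved the log2 ratio of side means from 3.51 to between 2.92 and 4.55 for Hspb1, from 2.901 to between 2.16 and 4.50 for Hspb8, and from 2.24 to between 1.58 and 3.46 for Bag3. The highest of these values came without negative-side library 1 for Hspb1 and Bag3 and without negative-side library 2 for Hspb8. Astrocytes and fibroblasts also express small heat shock proteins. As given above, the astrocyte sum and 5 of 13 fibroblast markers were higher in both positive-side libraries. Another 5 fibroblast markers were higher in both negative-side libraries, and 5 of 17 astrocyte markers had log2 fold changes below 0. The part of either cell type in these values was not tested.

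The lowest cytosolic values were those of Hsf1 and Hspa2. Hsf1 overlapped, with 21.2 and 7.83 normalized counts on the positive side, against 30.5 and 13.5 on the negative side. Hspa2, a testis-enriched Hsp70, had 3.78 and 3.91 on the positive side, against 6.30 and 8.10 on the negative side. Their log2 fold changes were -0.50 (SE 0.82) and -0.58 (SE 1.02) in the authors' deposited table. The cytosolic members left, Hspa4l and Dnajb1, had log2 fold changes of 1.03 and 0.30 there.

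The mitochondrial class is the chaperonin pair Hspd1 and Hspe1 (Hsp60 and its lid, Hsp10) and the matrix Hsp70, Hspa9. Hspa9 had 53.7 and 57.1 normalized counts on the positive side, against 29.4 and 27.0 on the negative side. Hspd1 had 59.0 and 72.8 on the positive side, against 37.8 and 55.4 on the negative side, and Hspe1 overlapped, with 17.4 and 9.39 on the positive side, against 12.6 and 23.0 on the negative side. Hspa9 and Hspd1 thus stood apart by side and Hspe1 did not. The log2 fold changes were 0.88 (SE 0.61) for Hspa9, 0.46 (SE 0.57, adjusted p = 0.606) for Hspd1 and -0.33 (SE 0.83) for Hspe1 in the authors' deposited table. The mitochondrial median moved with the scaling, from 0.46 as deposited to 0.03 with fold changes centred, and to -0.03 for the ratio of side means in centred libraries, so its direction was not kept. The ER and cytosolic medians stayed above 0 under the same centring, at 0.40 and 0.58 for fold changes and 0.46 and 0.60 for side means.

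Heat shock elements, searched as GAA, TTC and GAA in turn, or TTC, GAA and TTC in turn, each with any 2 bases between, were in 2 of 13 cytosolic windows (Hspa8 and Hsph1), in 2 of 3 mitochondrial ones (Hspd1 and Hspe1), in none of the 18 ER windows, and in 0.663% of all promoters. Hspd1 and Hspe1 are read in opposite directions from windows that share 211 bases, so their matches are the same letters. For the 4 members with the element the deposited axonal values had a log2 median of 0.48 (range -0.33 to 1.02), against 0.94 (range -0.58 to 2.897) for the 12 cytosolic and mitochondrial members whose window lacks it, and this difference was not tested. The called LOC100362895, and Cryab, St13 and Hsf1, had no window and are in neither group. The windows of Hspa8, at chr8:50080264-50080513 on the plus strand, and Hspe1, at chr9:64084077-64084326 on the plus strand, are printed because they hold 2 matches each, shown in capitals.
Hspa8: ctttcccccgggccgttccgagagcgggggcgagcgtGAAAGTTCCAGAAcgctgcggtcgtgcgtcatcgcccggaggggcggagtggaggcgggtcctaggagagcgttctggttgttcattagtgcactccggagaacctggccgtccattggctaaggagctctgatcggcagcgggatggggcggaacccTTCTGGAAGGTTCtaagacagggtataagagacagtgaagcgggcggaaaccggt
Hspe1: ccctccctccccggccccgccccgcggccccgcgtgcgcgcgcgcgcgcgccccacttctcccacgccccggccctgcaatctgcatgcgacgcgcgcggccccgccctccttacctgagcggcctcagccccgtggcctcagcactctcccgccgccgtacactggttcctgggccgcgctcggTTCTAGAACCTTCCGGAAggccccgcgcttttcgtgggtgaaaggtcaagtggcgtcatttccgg
The nearest match ends 43 bases before the start of Hspa8 and 48 bases before that of Hspe1. Cytosolic heat shock genes are known targets of heat shock factor 1, so these shares too are a description. A further element of the unfolded protein response, TGACGTGG, was in the windows of Hyou1 and Bag3 and in 0.52% of all promoters.

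Summed over a class in libraries that were not centred, the sides stood apart for all 3. In centred libraries the mitochondrial median log2 ratio of side means was -0.03, as given above. ER members summed to 1191 and 1240 normalized counts on the positive side, against 592 and 615 on the negative side. Cytosolic members summed to 1289 and 1451 on the positive side, against 613 and 783 on the negative side, and mitochondrial members to 130.01 and 139 on the positive side, against 79.8 and 105 on the negative side. These sums lay beside larger side differences in the astrocyte and fibroblast sums. Sparc was the largest part of the fibroblast sum, as Gfap and Vim were of the astrocyte sum. Of astrocyte markers 12 of 17 were above 0, and 7 of the 11 with an adjusted p were called on the positive side. Of fibroblast markers 8 of 13 were below 0, and the 5 named above were called on the positive side, of 6 with an adjusted p. Of neuron markers 0 of 7 were called. Microglia sums stood apart the other way, lower on the positive side. In bulk RNA, more cells of a type and more RNA per cell cannot be told apart, and the part of glia or fibroblasts in the chaperone values was not tested.

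**Figure D2:**
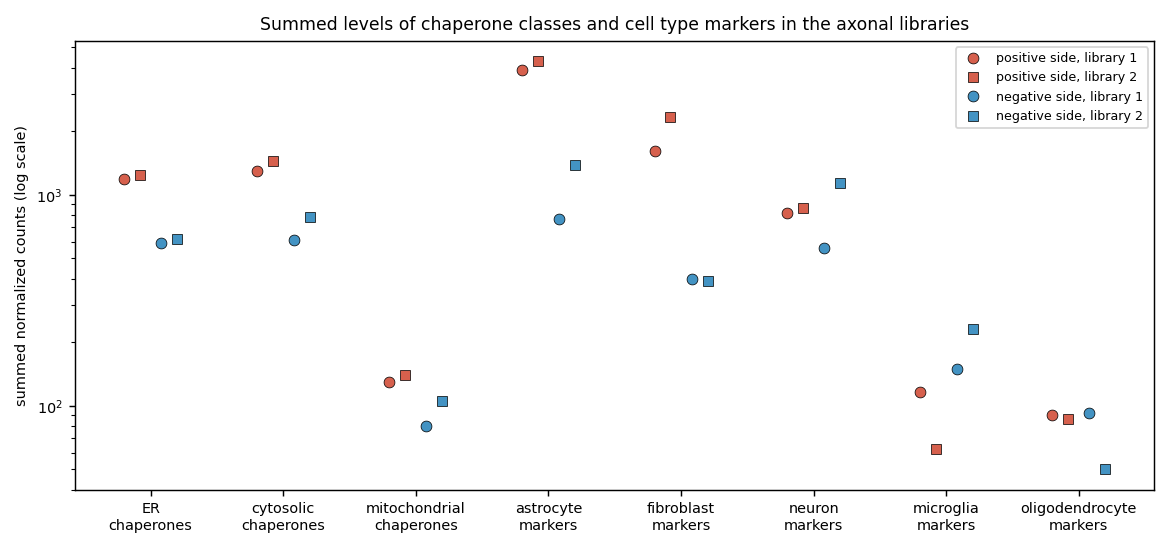
Summed normalized counts, on a log axis, of the 3 chaperone classes and of 5 marker lists in the 4 recovered axonal libraries (red, positive side; blue, negative side). The positive side is higher without overlap for all 3 chaperone classes and for astrocyte and fibroblast markers, the negative side for microglia markers, and the sides overlap for neuron and oligodendrocyte lineage markers. The libraries are not centred.

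Other genes of the same pathways, taken from lists of genes outside the 42, gave no call in either compartment, but few could be called in axons. An axonal adjusted p was carried by 4 other cytosolic genes, 3 other ER genes, 1 unfolded protein response gene and 0 other mitochondrial genes. Over all 1321 genes with one, 8.78% were called on the positive side, so the lists are too small to set against the 2 calls above. Of 42 other cytosolic chaperones and cofactors, 0 of 4 with an adjusted p were called, 31 were above 0, and the median axonal log2 fold change was 0.39 in the authors' deposited table. Tcp1, a subunit of the cytosolic chaperonin, and the Hsp40 gene Dnaja2 had the smallest p of that list, with log2 fold changes of 1.45 and 1.33. Of 52 other ER genes, 37 were above 0 with a median of 0.42, and 0 of 3 were called in the authors' deposited table. Ssr1, which encodes a subunit of the translocon-associated complex, had 40.8 and 34.4 normalized counts on the positive side, against 2.10 and 8.10 on the negative side, with a log2 fold change of 2.39 (unadjusted p = 0.0032), taken from the authors' deposited table. Vcp, the ATPase that pulls proteins out of the ER for degradation, had 149 and 171 on the positive side, against 57.8 and 78.3 on the negative side, and did not pass, with adjusted p = 0.0594, taken from the authors' deposited table. Of 17 sensors and transcription factors of the unfolded protein response, 11 were above 0 with a median of 0.44, among them Ddit3 (log2 fold change 2.22, unadjusted p = 0.029) and Creb3 (1.45, unadjusted p = 0.108), taken from the authors' deposited table. Of 16 other mitochondrial chaperones and proteases, 10 were above 0 with a median of 0.12, and the smallest p were those of Grpel1 (log2 fold change 1.48) and Clpx (1.37) there. The median of soma-expressed genes was 0.44, as given above.

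In soma no chaperone was called. None of the 42 passed, nor did any of the 18995 genes tested (0%), in the authors' deposited table, and 2 of all genes but none of the 42 had an unadjusted p under 0.05. Log2 fold changes ran from -0.65 (Hspa1b) to 0.47 (Sec61b), with 13 of 42 above 0, against 45.7% of all genes. The medians were -0.13 for ER members, -0.02 for cytosolic ones and -0.15 for mitochondrial ones, against -0.02 for all genes. Canx and LOC100362895, the axonal calls, had somatic log2 fold changes of -0.20 (SE 0.48) and -0.25 (SE 0.48) in the authors' deposited table. Each somatic side joined a deep and a shallow library that differed in content, as the fibroblast sums show, and whether the deposited test allowed for this is not given in the sources used here. The absence of somatic calls, and the difference between compartments that uses the same somatic errors, may therefore rest on a spread that includes this gap.

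Somatic libraries could be read for 38 members, those with a mean of up to 1000. The positive side was higher without overlap for 3 of them (Sec61b, Creld2 and Sdf2l1), against 7.55% of all genes, and the negative side for 2 (Sel1l and Hspd1), against 7.85%. Hspa5 had 572 and 441 normalized counts in the deep and the shallow positive-side library, against 689 and 463 in the deep and the shallow negative-side library. Hspb1 had 6.74 and 30.3 in the deep and the shallow positive-side library, against 11.8 and 15.6 in the deep and the shallow negative-side library. Both shallow libraries lay below both deep ones for Hspa5 and above them for Hspb1. Within the deep pair the median log2 ratio of sides was -0.11 over the members, and within the shallow pair -0.02.

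**Figure D3:**
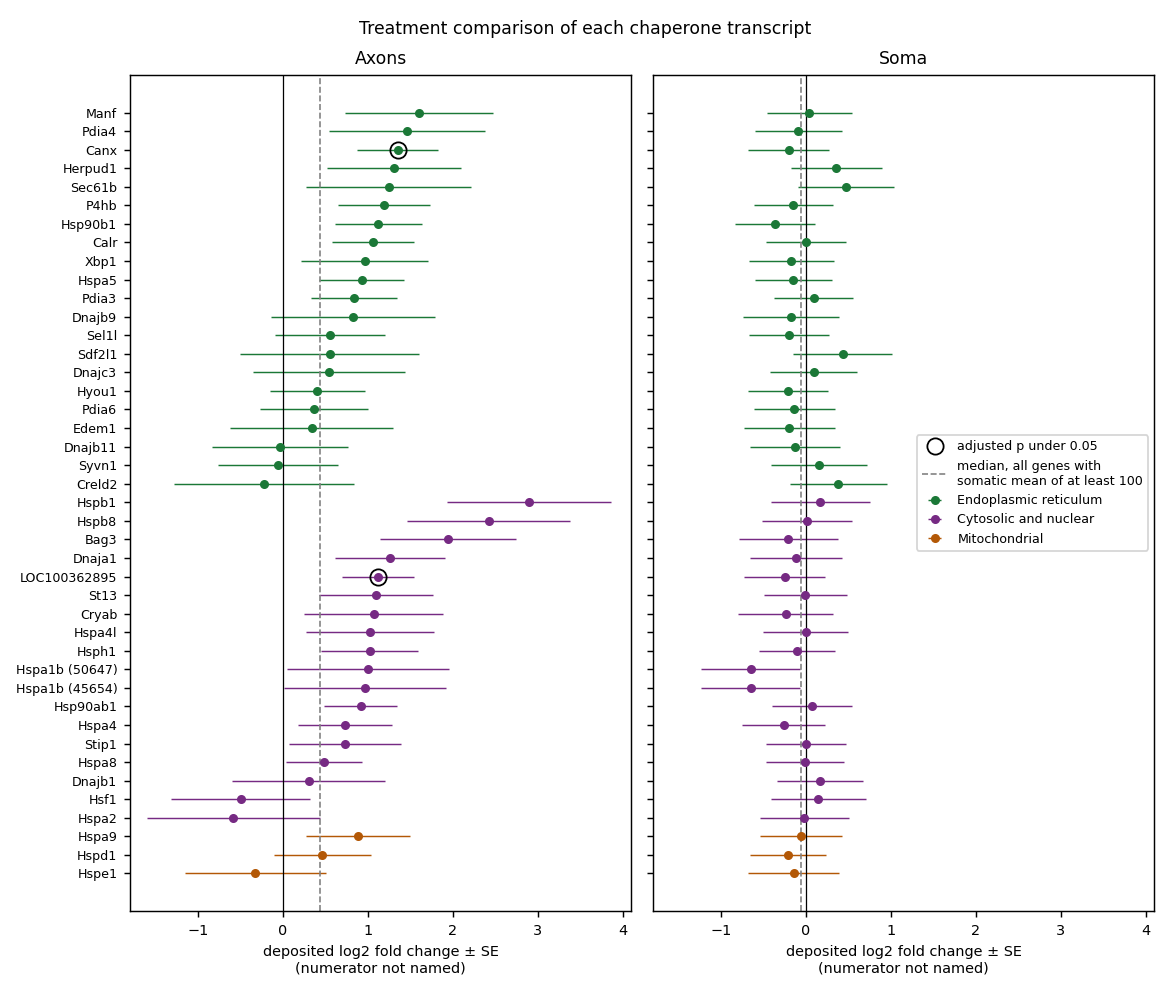
Deposited log2 fold change of each chaperone identifier, with bars of 1 standard error, in axons (left) and soma (right), coloured by class. The ring marks the 2 members with an adjusted p under 0.05, Canx and LOC100362895, and the dashed line the median of soma-expressed genes, which is 0.44 in axons and -0.06 in soma.

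The axonal and somatic fold changes were set against each other, gene by gene, with a two-sided z-test of the difference adjusted over 18406 genes. This takes the positive side to be the same treatment in both compartments, which is not stated. If it is not the same, the differences below do not compare like with like. None of the 42 was called, against 0.0326% of all genes (6 genes). At an unadjusted p under 0.05, no member was higher in soma, against 218 of the 18406 genes, and 6 were higher in axons, against 1.42%. These were Hspb1 (difference 2.73, SE 1.13, unadjusted p = 0.0153), Canx (1.56, SE 0.68, p = 0.021), Hspb8 (2.41, p = 0.0277), Bag3 (2.16, p = 0.029), LOC100362895 (1.37, p = 0.0322) and Hsp90b1 (1.49, p = 0.033), from log2 fold changes of the authors' deposited tables. The median difference was 0.77 for ER members, 1.12 for cytosolic ones and 0.68 for mitochondrial ones, against -0.03 for all genes. The extreme deposited fold changes lay nearer 0 than log2 ratios of recovered side means. In soma, Hspa1b was -0.65, against -1.36 for side means, and Sec61b 0.47, against 0.87. In axons, Hspb1 was 2.897, against 3.51, and Hspa2 -0.58, against -0.76. The difference and its z-test took deposited values and SEs as they stand, without allowing for this. The smallest adjusted p among the 42 was 1.00.

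The level of each member in axons relative to soma was set across tables that were normalized separately, so it is a description. Each table's means were scaled to the same total without 23 identifiers that are among the 20 most abundant of either table. On that scale the median log2 level of axons over soma was -1.88 for ER members, -1.93 for cytosolic ones and -1.98 for mitochondrial ones, and -2.06 for soma-expressed genes. Of members past that limit, the medians were -1.96 for 10 ER, -2.41 for 9 cytosolic and -1.98 for 3 mitochondrial members. The lowest were LOC100362895 and St13, both at -2.68, Canx at -2.65 and Manf and Dnaja1, both at -2.63. Bag3 stood at the other end at 1.61, with deposited means of 23.7 normalized counts in axons and 9.49 in soma in the authors' deposited tables. Genes of a like somatic mean, 5 to 50, had a median of -1.10 on this scale. Hspa1b followed at 0.05 and 0.08 for its 2 identifiers, then Hspb1 at -0.17, Hsf1 at -0.31 and Cryab at -0.32, all of low somatic mean. This order depended on the side of the axonal libraries. With each axonal side set over the same somatic mean, Bag3 was at 2.36 on the positive side, against -0.02 on the negative side, and was the highest member on both. Hspb1 was at 0.76 on the positive side, against -3.65 on the negative side, where only Hspb8 at -4.03 and Manf at -3.99 were lower. Hsf1 was at -0.65 on the positive side, against -0.04 on the negative side, where it came next to Bag3.

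**Figure D4:**
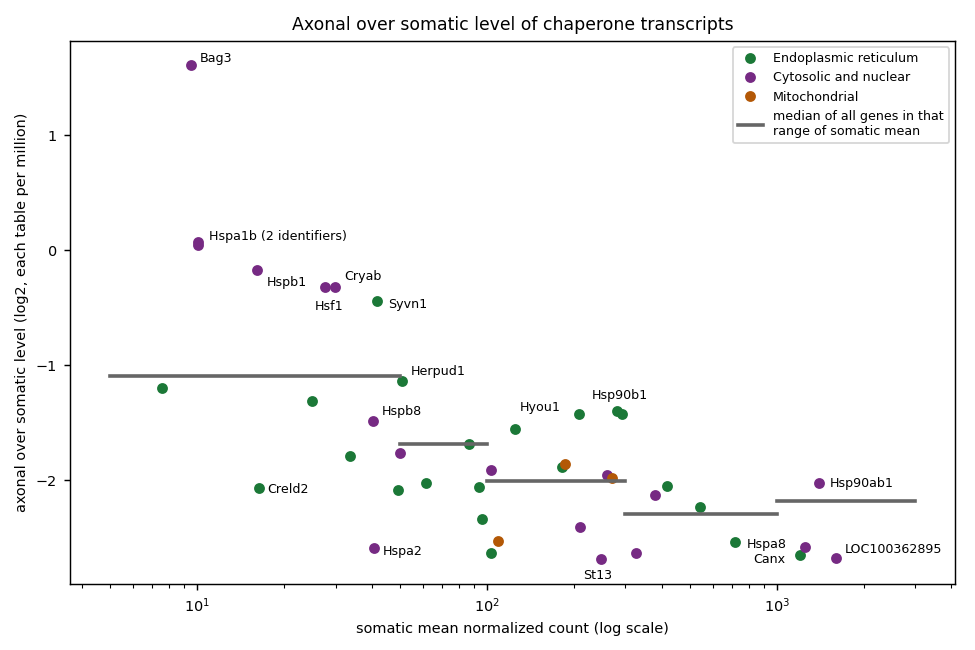
Log2 level of each chaperone in axons over soma against its somatic mean normalized count (log axis), coloured by class, with the median of all genes in bins of somatic mean for comparison. Bag3 lies highest at 1.61, and Hspb1, Hsf1 and Cryab lie above the -1.10 of genes in their range.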

How the data were processed

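The submitters' processing notes name DESeq2, SAMtools, TopHat2 and Trim Galore. Versions, genome build and read counter were not given in the sources used here. Per the file headers, the authors deposited, for each compartment, the mean normalized count (a signal: gene counts divided by size factors), log2 fold change and SE, Wald score, p-value and adjusted p. None has a column per library.

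Deposited means are sums of whole reads times 1 fixed unit per library. The units came from genes of 1 read, whose fold-change sign gives the side, and each mean was then solved for reads up to a mean of 1000. Every mean below 500 that was checked had 1 solution, and somatic means of 500 to 1000 are less certain. Recovered libraries entered no test of their own. The recovery and the difference test were tested on simulated data.

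Calls are adjusted p under 0.05. The pseudocount of ratios is 1 normalized count. The 95% intervals are exact and cover counting error only. Members and lists were chosen with earlier results of these data known. Members with an adjusted p are given in full, others by extremes and ranges; further members and libraries were described after their values were seen. Python 3.11.15, numpy 2.4.6, scipy 1.17.1, pandas 2.3.3 and matplotlib 3.10.9 were used. Alternatives changed the genes adjusted over, centring, filters, pseudocount, scaling and libraries.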

Additional observations from a re-analysis of the deposited data

Results flagged for a closer look

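Sel1l and Hspd1 drew attention because their sides stood apart in opposite directions in the 2 compartments, in libraries that were not centred. With the axonal library shifts given above removed, the axonal sides of both genes overlapped. Taken singly, the positive side was higher without overlap for 17.1% of all genes in axons, and the negative side for 7.85% in soma. The share of all genes meeting both was not counted, so whether these 2 members stand out is not known. The direction is the sign of the deposited fold change, and the positive side may not be the same treatment in both compartments. Sel1l, of ER-associated degradation, had 44.6 and 39.9 normalized counts in axons on the positive side, against 30.5 and 24.3 on the negative side. In soma it had 123 and 104 on the positive side, against 135 and 138 on the negative side. Hspd1, the mitochondrial Hsp60, had 59.0 and 72.8 in axons on the positive side, against 37.8 and 55.4 on the negative side, and in soma 263 and 229 on the positive side, against 304 and 288 on the negative side. The axonal minus somatic difference in log2 fold change was 0.76 for Sel1l (SE 0.80, two-sided z-test across all genes, p = 0.339, adjusted p = 1.00) and 0.68 for Hspd1 (SE 0.73, p = 0.348, adjusted p = 1.00), from the authors' deposited tables. Neither difference passed.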

How the results depend on the processing

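The number of chaperones called in axons was 2 as deposited and 0 when adjusted over every gene with reads, 0 over genes whose mean reached 10, and 0 after centring on genes whose somatic mean reached 100. No setting gave a call in soma or for the difference. Members with the positive side higher without overlap were 29 of 42, 20 of 42 in centred libraries (8.89% of all genes), and 12 of the 13 whose mean reached 50 (49.6% of genes). Those with the negative side higher were 1 of 42, then 3 of 42 in centred libraries (30.6% of all genes), 0 at a mean of at least 10, and 0 of 13 at 50 (15.9% of genes). Filters, library centring and the levels by axonal side were added after seeing the data. The ER median log2 fold change of 0.84 became 0.95 at a mean of at least 10, 1.06 at 50, 0.97 for side means, 0.40 centred and 0.46 for side means centred. The cytosolic median of 1.01 became 0.58 and 0.60 under the last 2 settings, and the mitochondrial one of 0.46 became 0.027 and -0.031. Leaving out each library in turn gave 0.77 to 1.10 for ER, 0.94 to 1.30 for cytosolic and 0.25 to 0.78 for mitochondrial members. Levels of axons over soma became -1.22, -1.27 and -1.32 (ER, cytosolic, mitochondrial) when scaled to the sum of all genes, and 0.18, 0.13 and 0.076 when scaled to the median ratio of genes whose somatic mean reached 100. The cytosolic level was -2.41 for members past that limit. The cause of these shifts was not tested beyond what each setting removes. Leaving out 1 axonal library changed the sign of the ratio for 7 members, namely Creld2, Dnajb1, Dnajb11, Hsf1, Hspe1, Pdia6 and Syvn1.

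No paired analysis was possible because the recovered libraries cannot be tied to the replicate numbers of the sample titles. The deposited test was not refitted on recovered reads, with or without a library, so leave-one-out values are ratios with no test. Few axonal reads limit most members, of which 29 of 42 carry no adjusted p.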
